A study of Rattus norvegicus with 22 samples.

Results

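In the rat prefrontal cortex, 153 genes stood out for low RNA levels in samples treated with cocaine without WIN. They were chosen on control and cocaine values alone, by 3 limits: a mean FPKM over the 3 control libraries of at least 2, a control mean at least 1.5 times the cocaine mean, and a highest cocaine value below the lowest control value. FPKM is a read number corrected for gene length and library size. The 153 genes were 0.573% of the 26689 Ensembl IDs in the deposited table, and 1.25% of the 12267 Ensembl IDs that reached the control limit. The choice used no WIN value and no value of WIN with cocaine, and the levels in those 2 groups are the main subject here.

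Cocaine blocks the transporter that clears dopamine from the synapse, and the prefrontal cortex is a target of dopamine neurons. WIN is the short name of a synthetic agonist of the cannabinoid receptors, of which CB1 is abundant on the nerve endings of the cortex and reduces transmitter release. The prefrontal cortex is still maturing in adolescence, and this is why exposure at that age is studied.

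The series asks how cannabinoid exposure in adolescent rats alters the first response to cocaine. RNA of the prefrontal cortex was sequenced in 12 libraries, 3 in each of 4 groups: control, WIN, cocaine, and WIN with cocaine. All came from male rats of the Sprague-Dawley strain by their labels, which give no dose, age, time after treatment or vehicle. Whether a replicate is its own animal or a pool is not stated, so p-values cover only the variation among the libraries, possibly technical variation. The files do not pair these IDs with names, and 0 genes of the reference table at hand carried an Ensembl ID. The functions of the 153 genes, and the markers of cortex and its cell types, were therefore not analysed here, and 4 genes are followed by ID. The libraries held 20852442 to 27677077 reads. WIN replicate 3 stood apart from the rest, with a limma library weight of 0.296, the lowest of the 12.

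The 153 genes held close to control levels in WIN replicates 1 and 2, and lay lower in WIN replicate 3. Over the 153 genes, the median FPKM was 97.1% of the control mean in WIN replicate 1, 89.1% in WIN replicate 2 and 69.8% in WIN replicate 3. In the libraries of WIN with cocaine it was 71.6% in replicate 1, 87.6% in replicate 2 and 84.0% in replicate 3. In the libraries that chose the genes it was 88.3%, 112% and 97.1% for control replicates 1 to 3, and 57.9%, 59.4% and 64.0% for cocaine replicates 1 to 3. The choice of genes puts the cocaine libraries lowest on this measure, so the values of interest are those of the 6 libraries that had received WIN, set against each other. Over all 15326 genes tested, the same median ran from 97.1% to 101% across the 12 libraries, which the scaling of FPKM to library size largely fixes.

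**Figure D1:**
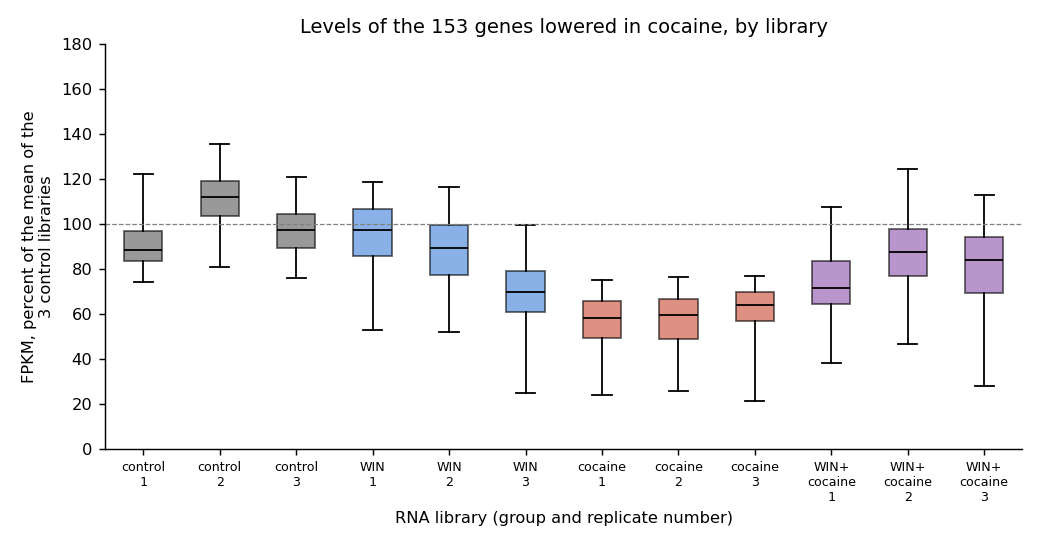
FPKM of the 153 genes as a percent of each gene's mean over the 3 control libraries, for each of the 12 RNA libraries; boxes span the middle 50% of genes with the median as a line, and whiskers reach the 5th and 95th percentiles. Control and cocaine values chose the genes. WIN replicate 3 (median 69.8%) and WIN with cocaine replicate 1 (71.6%) sit nearest to the cocaine libraries.

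Both groups that had received WIN lay, for most of the genes, between control and cocaine. The mean of the WIN group was below the control mean in 140 genes and above the cocaine mean in 147. The mean of WIN with cocaine was below the control mean in 143 genes and above the cocaine mean in 150. Because the genes were taken for high control and low cocaine values, any other set of libraries is drawn inwards from both ends, so these counts are a description and carry no test. WIN against control and WIN with cocaine against either cocaine or control, as well as the interaction, share libraries with the choice and are given as values only. In bulk tissue, fewer cells of a type and less RNA per cell cannot be told apart.

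The place of each gene can be put on a scale on which the control mean is 0% and the cocaine mean is 100%. On this scale the WIN group stood at a median of 36.0% over the 153 genes, with the middle 50% of genes from 17.6% to 52.8%. WIN with cocaine stood at a median of 49.0%, with the middle 50% from 31.1% to 61.0%. Both ends of the scale are the same for the 2 groups, so the choice of genes draws both alike. By library the medians were 7.82%, 29.7% and 78.2% for WIN replicates 1 to 3, and 73.6%, 34.3% and 39.9% for WIN with cocaine replicates 1 to 3. The 2 groups overlapped, and the library nearest to cocaine was one of the WIN group. Without WIN replicate 3 the WIN median was 17.03%. Without replicate 1 of WIN with cocaine, that group's median was 36.1%.

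Counted gene by gene, the cocaine range was reached mainly in the same 2 libraries. In WIN replicate 1, 14 of the 153 genes were at or below their highest cocaine value, in WIN replicate 2 it was 19, and in WIN replicate 3 it was 68. In WIN with cocaine these counts were 65 in replicate 1, 22 in replicate 2 and 36 in replicate 3. The control range or higher was reached by 119, 97 and 28 genes in WIN replicates 1 to 3, and by 36, 84 and 69 genes in WIN with cocaine replicates 1 to 3. All 3 WIN values were above the highest cocaine value in 77 genes, and all 3 values of WIN with cocaine in 67. All 3 WIN values were at or below the highest cocaine value in 4 genes, and all 3 values of WIN with cocaine in 5. In 40 genes all 6 values of the 2 groups were above the highest cocaine value. The genes were chosen for low cocaine and high control values, so all these counts follow in part from the rule. The shares over all genes were not computed, and the counts are a description only.

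**Figure D2:**
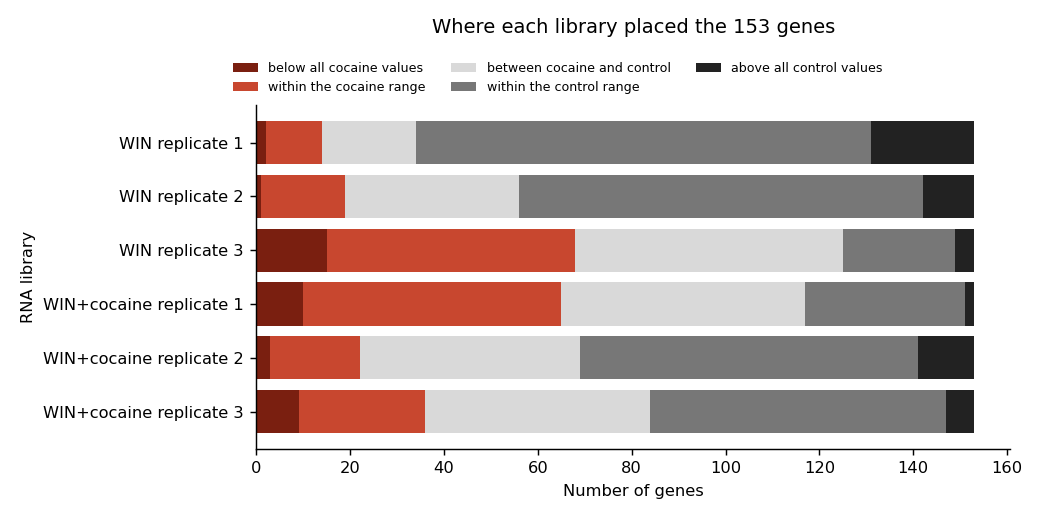
Number of the 153 genes, for each WIN library and each library of WIN with cocaine, whose FPKM fell below all 3 cocaine values, within the cocaine range, between the cocaine and control ranges, within the control range, or above all 3 control values. The cocaine range or below held 68 genes in WIN replicate 3 and 65 in WIN with cocaine replicate 1, against 14 to 36 in the other 4 libraries.

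Within the WIN group the replicates did not share 1 level. WIN replicate 3 was the lowest of the 3 WIN libraries in 120 of the 153 genes, or 78.4%, and the highest in 10. Over all 15326 genes tested it was the lowest in 45.9% and the highest in 34.8%. The log2 difference of WIN replicate 3 from the mean of replicates 1 and 2 had a median of -0.36 over the 153 genes and -0.04 over all genes tested. Within WIN with cocaine, replicate 1 was the lowest library in 89 genes, or 58.2%, beside 33.9% of all genes tested. WIN replicate 3 and WIN with cocaine replicate 1 were both the lowest of their groups in 67 genes, or 43.8%, beside 16.6% of all genes tested. No control or cocaine value enters these counts. What set these 2 libraries apart was not tested.

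The pairwise comparison of WIN with cocaine against WIN shares no library with the choice, and asks whether the 153 genes were also lower after cocaine in rats that had received WIN. The difference was small, and no gene passed the test. Differences are on the log2(FPKM + 1) scale, where those of weakly expressed genes come out too small. The median difference over the 153 genes was -0.06, with the middle 50% from -0.17 to 0.04 and extremes of -1.06 and 1.12. Over all 15326 genes tested the median was 0.0038. Of the 153 genes, 99 were lower and 54 higher in value in WIN with cocaine, so 64.7% were lower beside 48.7% of all genes tested.

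The test was limma with Benjamini-Hochberg adjustment over all genes tested, and all 153 genes passed the filter on low values. It called 0 of the 153 genes at an adjusted p under 0.05, beside 0.00% of all genes, and the smallest adjusted p of any gene was 0.975. At an unadjusted p under 0.05, 3 of the 153 genes were lower, or 1.96%, beside 1.20% of all genes, and 4 were higher, or 2.61%, beside 2.56%. Limma voom on the recovered reads called 0 genes, and at an unadjusted p under 0.05 it gave 5 of the 153 lower, or 3.27% beside 1.285% of all genes, and 4 higher, or 2.61% beside 2.825%. The 3 values of WIN with cocaine lay below all 3 WIN values in 3 genes, or 1.96%, beside 2.94% of all genes, and above them in 5, or 3.27%, beside 4.52%. Both counts were of few genes and near the shares of all genes, so no difference is drawn from them.

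**Figure D3:**
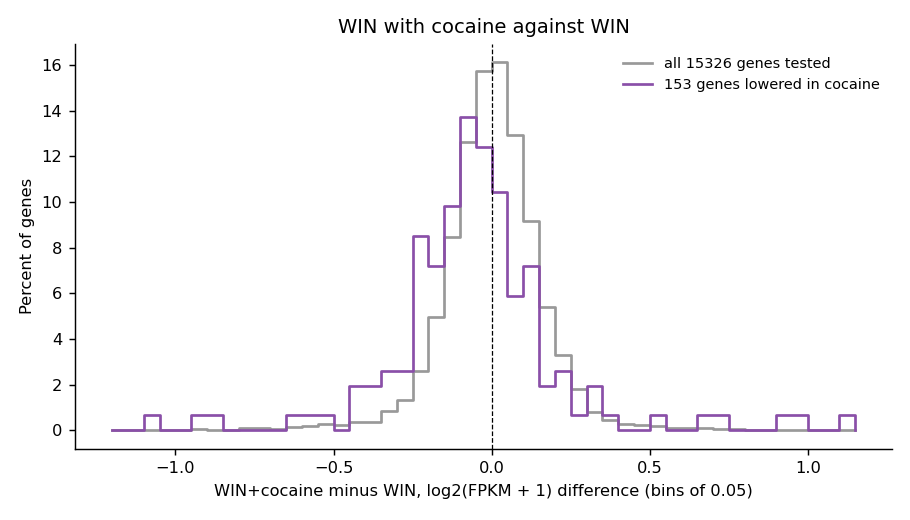
Distribution of the difference between WIN with cocaine and WIN, as log2(FPKM + 1), in bins of 0.05; the purple line is the 153 genes and the grey line all 15326 genes tested, each as a percent of its genes. The 19 tested genes with a difference over 1.2 in size are not drawn. The 153 genes lie to the left of all genes by little, with medians of -0.06 and 0.0038.

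The share of lower values depended on single libraries. Without WIN replicate 3, 123 of the 153 genes, or 80.4%, were lower in WIN with cocaine than in WIN, beside 52.8% of all genes tested, and the median difference was -0.16 beside -0.01. The 3 values of WIN with cocaine then lay below both remaining WIN values in 44 of the 153 genes, beside 18.9% of all genes tested, and 23 genes were lower at an unadjusted p under 0.05 in limma, beside 6.57% of all genes. Without WIN replicate 1, 71 genes were lower, or 46.4% beside 46.2% of all genes tested, and the median was 0.01. Without replicate 1 of WIN with cocaine, 76 genes were lower, or 49.7% beside 48.4%, and the median was again 0.01. The share stayed above that of all genes tested without WIN replicate 2, at 57.5% beside 43.8%. The same held without replicate 2 of WIN with cocaine, at 71.2% beside 51.3%, and without replicate 3 of that group, at 67.3% beside 45.9%. Limma with Benjamini-Hochberg adjustment called 0 genes in each of these fits.

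The share of genes lower in WIN with cocaine was 78.5% at higher control levels, and lower control levels were split evenly. Of the 79 genes with a control mean FPKM of 5 or more, 62 were lower than in WIN, and their median log2 difference was -0.09. Of all 10176 genes tested at that control level, 48.2% were lower. Of the 74 genes with a control mean under 5, 37 were lower, with a median of -0.01. Among all 2725 genes tested with a control mean from 2 to under 5, 49.3% were lower. Without replicate 1 of WIN with cocaine the count among the 79 was 45, or 57.0% beside 47.8% of all genes tested at that level. With WIN replicate 3 left out instead, the count among the 79 was 72, or 91.1% beside 53.7%. Of the 27 genes with a control to cocaine ratio of 2 or more, 14 were lower in WIN with cocaine. This was 51.9%, near the 52.5% of all genes tested at that ratio, which were only 101 and include the 27 themselves. Of the 126 with a smaller ratio 85 were, or 67.5% beside 48.6%. The control mean and the ratio are themselves values that chose the genes. The difference between these subsets was not tested.

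The patterns can be followed in single libraries through 4 genes. They are the 2 with the highest mean FPKM over the 12 libraries on each side of the comparison of WIN with cocaine against WIN. ENSRNOG00000046045, the most abundant of the 153 per length, had an FPKM of 248, 209 and 165 in WIN replicates 1 to 3. In WIN with cocaine it had 144, 176 and 136, in control 176, 239 and 213, and in cocaine 122, 130 and 161. WIN matched control, with group means of 208 ± 41.4 and 209 ± 31.8 (SD, n = 3), while WIN with cocaine lay near cocaine, at 152 ± 21.2 against 138 ± 20.4 (SD, n = 3). WIN and WIN with cocaine overlapped only through WIN replicate 3 and WIN with cocaine replicate 2. The log2 difference of WIN with cocaine from WIN was -0.44 with an SE of 0.16 and a limma adjusted p of 0.975. The gene length implied by its values was 53 bp, and its level rested on 150 to 364 reads per library.

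ENSRNOG00000004426, with an implied length of 551 bp, had an FPKM of 156, 169 and 111 in WIN replicates 1 to 3 and 111, 128 and 122 in WIN with cocaine. It had 185, 162 and 202 in control and 128, 88.4 and 122 in cocaine. The 3 libraries of WIN with cocaine were thus all within or just above the cocaine range, and WIN replicate 3 was there too, whereas WIN replicates 1 and 2 lay between cocaine and control or within control. The WIN mean was 145 ± 30.2 and the mean of WIN with cocaine 121 ± 8.47 (SD, n = 3). They differed by -0.24 on the log2 scale (SE 0.17, limma adjusted p = 0.975). The values overlapped.

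ENSRNOG00000018282, of 1553 bp, had an FPKM of 47.9, 39.9 and 34.9 in WIN replicates 1 to 3 and 37.4, 42.9 and 51.8 in WIN with cocaine, beside 39.4, 54.7 and 45.7 in control and 26.8, 33.1 and 32.5 in cocaine. All 6 values of the 2 groups were above the highest cocaine value. The WIN mean was 40.9 ± 6.54, below the 44.1 ± 7.27 of WIN with cocaine (SD, n = 3). The log2 difference of 0.10, with an SE of 0.15 and a limma adjusted p of 0.983, was within the spread of the replicates. It was -0.0021 without WIN replicate 3.

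ENSRNOG00000045771, of 3080 bp, had an FPKM of 22.8, 18.9 and 15.4 in WIN replicates 1 to 3 and 16.5, 20.2 and 22.9 in WIN with cocaine. Control values were 19.7, 29.1 and 21.3, and cocaine values 13.9, 15.3 and 15.3. Again all 6 values were above the highest cocaine value, WIN replicate 3 by the least. The means of 19.0 ± 3.69 for WIN and 19.9 ± 3.18 for WIN with cocaine (SD, n = 3) differed by 0.07 on the log2 scale (SE 0.16, limma adjusted p = 0.986). Without WIN replicate 3 the difference was -0.07.

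**Figure D4:**
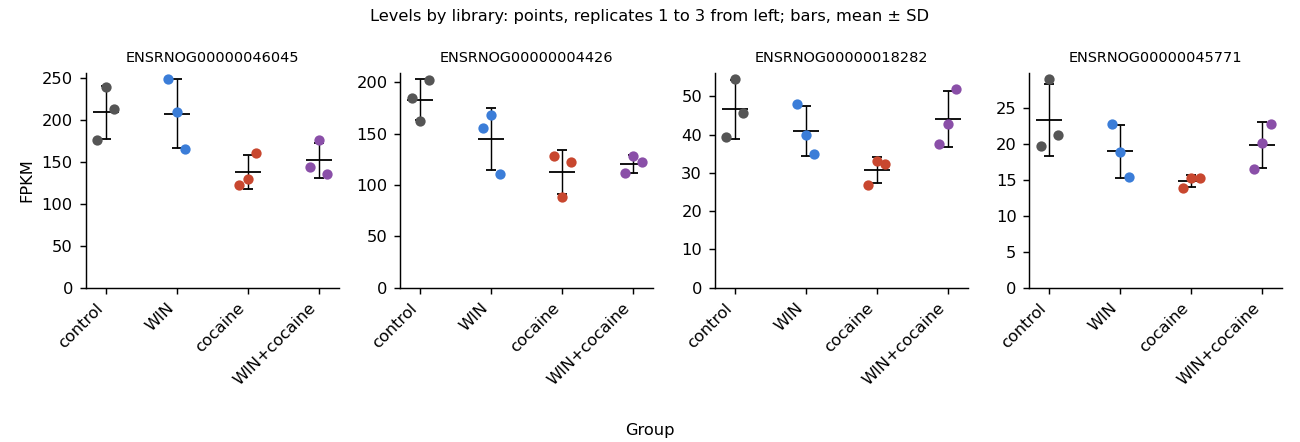
FPKM of the 4 genes followed by ID in the 12 RNA libraries; points are replicates 1 to 3 of each group from left to right, and black marks the mean with its SD (n = 3). In all 4 genes WIN replicate 3 is the lowest WIN library, and in the 2 genes on the right all values of WIN and of WIN with cocaine lie above the cocaine values.

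A small set of the genes varied widely within a group. With a highest value of at least 2 FPKM and over 4 times the lowest, 8 of the 153 genes, or 5.23%, were spread in this way among the WIN libraries, beside 0.940% of all genes tested. Among the libraries of WIN with cocaine there were 10, or 6.54%, beside 1.24%. Together these were 13 genes. The genes below were taken from them after their values were seen, and are given by implied length. A gene of 406 bp was listed at 0 in all 3 cocaine libraries, in WIN replicate 3 and in WIN with cocaine replicate 2. In the other 7 libraries it had up to 4.86 FPKM, from 11 to 51 reads. A gene of 1175 bp had 0.404, 0.509 and 0.455 in cocaine, 0.502 in WIN with cocaine replicate 1 and 0.591 in control replicate 3, against 4.02 to 12.5 in the other 7 libraries. One of the 2 genes of 657 bp had 17.8 and 8.75 in control replicates 2 and 3 and 14.2 in WIN with cocaine replicate 2, against 0.698 to 1.25 in the other 9 libraries, control replicate 1 among them.

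The largest differences between WIN with cocaine and WIN were also among these 13 genes. A gene of 1032 bp had 0.715 and 0.674 in WIN with cocaine replicates 1 and 3 but 11.1 in replicate 2, with 5.19 to 6.62 in WIN, 5.44 to 15.7 in control and 0.740 to 3.15 in cocaine. It had the largest negative difference of WIN with cocaine from WIN among the 153, -1.06 on the log2(FPKM + 1) scale. The largest positive difference, 1.12, was in a gene of 801 bp, with 4.34 to 4.65 in WIN with cocaine, 2.30, 2.67 and 0.303 in WIN replicates 1 to 3, and 0.334 to 0.755 in cocaine. Neither difference passed the test.

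The 153 genes were short and of modest level for genes that could have been chosen. The length of each gene follows from the steps of its FPKM values, since 1 read is worth more in a short gene. The implied length had a median of 1225 bp over the 153 genes, with the middle 50% from 635 to 2238 bp. Over the 12266 tested Ensembl IDs with a control mean FPKM of 2 or more the median was 1970 bp, with the middle 50% from 1264 to 3034 bp. Of the 153 genes 63, or 41.2%, were under 1000 bp, beside 16.7% of those Ensembl IDs. In 88 genes, or 57.5%, the length was a multiple of 3, beside 43.9%. The mean FPKM over the 12 libraries had a median of 4.27 for the 153 genes and 13.8 for those Ensembl IDs. The reads behind a gene were also few, with a median of 137 per library over the 153 genes and 712 over those Ensembl IDs. Of the 153 genes 18, or 11.8%, had fewer than 30 on average, beside 1.52%. The part of length and read number in the choice was not tested.

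**Figure D5:**
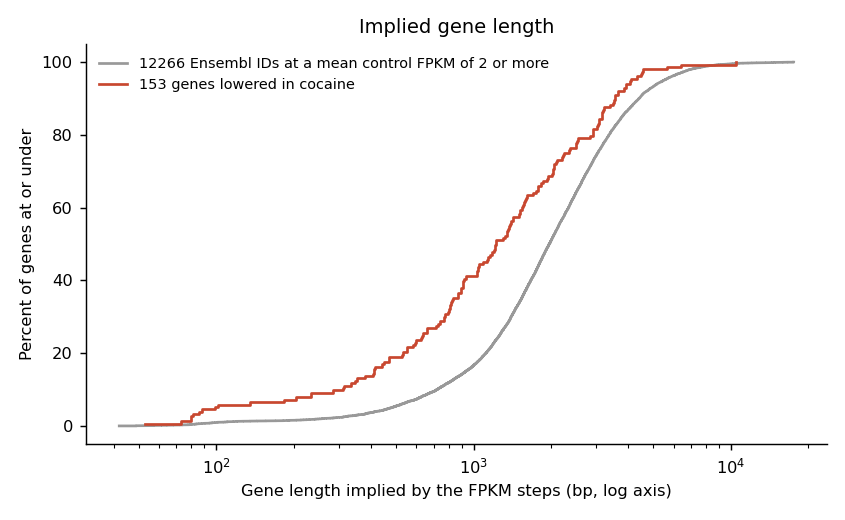
Percent of genes at or under each gene length implied by the FPKM steps (log axis), for the 153 genes (red) and the 12266 tested Ensembl IDs with a control mean FPKM of 2 or more (grey). The red line is to the left, with a median of 1225 bp against 1970 bp.

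The pattern in the WIN libraries was present in longer and shorter genes. WIN replicate 3 was the lowest WIN library in 74 of the 90 genes of 1000 bp or more and in 46 of the 63 shorter ones, 82.2% and 73.0%. Among all tested genes these shares were 45.5% and 47.8%. Of the 90 longer genes 60 had the lower mean in WIN with cocaine, or 66.7% beside 47.4% of all tested genes of that length. Of the 63 shorter ones 39 had, or 61.9% beside 54.1%. Without replicate 1 of WIN with cocaine these shares were 45.6% beside 45.8% for the longer genes and 55.6% beside 59.8% for the shorter. With at least 30 reads per library on average, 109 of 135 genes had WIN replicate 3 lowest, or 80.7% beside 46.5% of all tested genes. The mean was lower in WIN with cocaine in 89 of these 135, or 65.9% beside 48.5%. Without replicate 1 of WIN with cocaine it was lower in 66, or 48.9% beside 48.1%.

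The rule turned round, for a cocaine mean FPKM of at least 2 and at least 1.5 times the control mean without overlap, gave 357 Ensembl IDs that were higher in cocaine. They showed the same libraries from the other side. WIN replicate 3 was the highest WIN library in 79.8% of the 357, beside 34.8% of all genes tested. It was the lowest in 78.4% of the 153, beside 45.9%. Replicate 1 of WIN with cocaine was the highest of its group in 56.9% of the 357, beside 36.5% of all genes tested. Among the 153 it was the lowest in 58.2%, beside 33.9%. On the scale from control mean to cocaine mean, the 357 stood at a median of 19.6% in WIN and 37.6% in WIN with cocaine, against 36.0% and 49.0% for the 153. In WIN with cocaine against WIN, 79.3% of the 357 were higher, beside 51.3% of all genes tested, and 64.7% of the 153 were lower, beside 48.7%. The median log2 differences were 0.15 and -0.06. Without WIN replicate 1, 144 of the 357, or 40.3%, were lower, against 20.7% with it, and their median was 0.05. Of all genes tested 46.2% were then lower, with a median of 0.01. Without WIN replicate 3, 14.3% of the 357 were lower, beside 52.8% of all genes tested. Without replicate 1 of WIN with cocaine it was 27.2% beside 48.4%. Both sets were chosen on the same control and cocaine libraries, and the difference between them was not tested.

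The limits of the rule ran through a continuous range. The lowest control to cocaine ratio among the 153 genes was 1.501, and the highest just outside was 1.4998. The median ratio was 1.62, 70 genes had a ratio under 1.6, and 27 had one of 2 or more. The lowest control mean inside was 2.18 FPKM and the highest outside 1.997. The gap between the lowest control and the highest cocaine value was 1.002-fold in the closest gene and 1.21-fold in the median. Another 71 Ensembl IDs met both limits on the means but overlapped, and 283 met all but the control limit. Of the 2974 IDs of another series in the table, 26 met the 3 limits and were left out by the rule.

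Single libraries also decided which genes were chosen. Control replicate 2 was the highest control library in 106 of the 153 genes, replicate 3 in 30 and replicate 1 in 17. Chosen without control replicate 2, the rule gave 110 genes, of which 87 were among the 153. Without control replicate 1 it gave 340 genes, which held 146 of the 153, and without cocaine replicate 3 it gave 295, which held 141. Without control replicate 3 and cocaine replicates 1 and 2 it gave 223, 208 and 217 genes, which held 138, 112 and 115. With fewer libraries the ranges overlap less easily, so larger numbers follow in part from the rule.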

How the data were processed

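The authors deposited 1 table with an FPKM value per gene and prefrontal cortex RNA library. Per the labels' protocols, Trizol RNA was made into stranded libraries. The submitters' processing notes name HISAT2, HTSeq and DESeq, without versions or roles. Build, annotation and strand setting: not given in the sources used here. Antisense partners and paralogs may therefore share reads. Columns were mapped to groups through sample labels. The ATAC data (1 library per treatment) and 6 nucleus accumbens libraries were not used here.

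Each gene's FPKM values were whole multiples of a single step once libraries were scaled, which gave back reads and gene lengths: all 24197 genes with a value had a solution. Of the 11615 with over 200 reads somewhere, 99.98% came within 0.03 bp of whole base pairs. Replicates differed beyond sampling noise (chi-square per degree of freedom 9.14 to 32.5).

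The filter kept the 15326 genes at 1 FPKM or above in 3 or more libraries. Limma 3.58.1 in R 4.3.3 was fitted to log2(FPKM + 1), with 4 group means over the 12 libraries, a prior variance with a trend, and p-values adjusted by Benjamini-Hochberg. Data were simulated with 200 changed genes among 15326. There WIN with cocaine against WIN recovered 48% of genes changed 1.5-fold and 85% of those changed 2-fold, and called 6 unchanged genes. The simulated 2-fold changes had a median log2 estimate of 1, whereas real changes come out smaller in weakly expressed genes. The median of the mean FPKM was 4.27 for the chosen genes and 9.76 for all genes tested. The recovered shares may therefore be too high for the chosen genes, for which recovery was not computed. The shares hold for the simulated noise only. In the real data the limma library weights ran from 0.296 for WIN replicate 3 to 2.246 for control replicate 3. WIN replicate 3 was also the lowest WIN library in 78.4% of the chosen genes. Recovery with such a library was not computed, so the shares do not show what the real test could have missed. Members, tests and lists were chosen with earlier results of these data known. The 4 IDs are the 2 with the highest mean FPKM on each side of WIN with cocaine against WIN, a reduced form of the naming rule, since the IDs have no names here. Alternatives are in the closing section.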

Additional observations from a re-analysis of the deposited data

How the results depend on the processing

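WIN with cocaine against WIN called 0 genes, and 0 of the 153, in limma under every alternative run: pseudocounts of 0.1 and 0.5, no filter, median ratio rescaling, quantile normalization, library weights, only the libraries compared, limma voom, the replicate block and each library left out. The count of all genes at an unadjusted p under 0.05 was 576, and ran from 359 to 2261 over left-out libraries. The median difference of the 153 genes was -0.06, ran from -0.16 to 0.01 over left-out libraries, and was -0.11 with library weights and -0.06 with the replicate block. Genes wholly below WIN numbered 3 (2.94% of all genes tested), and 4 to 44 over left-out libraries, where comparing fewer libraries raises the share of all genes too, to between 4.535% and 18.9%; genes lower in value numbered 99, and 71 to 123. With other limits of the rule these 2 counts were 21 and 691 of 917 genes at a ratio of 1.3, 1 and 14 of 27 at a ratio of 2, and 0 and 62 of 79 at a control mean of 5, beside 2.94% and 48.7% of all genes tested; the number of genes differs by construction. Over left-out libraries the difference of ENSRNOG00000018282 ran from -0.018 (WIN+cocaine replicate 3 left out; -0.0021 for WIN replicate 3) to 0.22, and that of ENSRNOG00000045771 from -0.071 (WIN replicate 3 left out; -0.038 for WIN+cocaine replicate 3) to 0.20; the cause was not tested. Choosing the genes anew without a library was added after the data were examined; it gave 340 genes without control replicate 1 and 295 without cocaine replicate 3, beside 153.

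The replicate numbers gave little sign of pairing: the correlation of deviations was between -0.281 and 0.196 for the 18 pairs with a shared number (median 0.014) and had a median of -0.016 for the 36 others. With the replicate block, 5 of the 153 were lower at an unadjusted p under 0.05 in limma (1.22% of all genes), against 3 without it (1.20%). With library weights 19 were lower (5.76% of all genes) and 1 higher (8.04%). Low read numbers limit the shortest and lowest genes.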
